A study of Mus musculus with 59 samples.

Results

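H3K27ac was compared between uteri of mice aged 42 to 48 weeks and uteri of mice aged 9 to 11 weeks. The older group is labelled aged group 2 (6 libraries, 3 of 42 weeks and 3 of 48 weeks) and the younger group is labelled young (7 libraries). These 13 libraries were chosen by the age in their library names, out of 27 H3K27ac libraries and 59 samples in the series, and all 54354 peaks on chromosomes 1 to 19 and X were kept, of 54362 in the table. All animals were of the C57/B6 strain, with no genotype change or treatment stated, and the comparison addressed how this mark differs with reproductive age. The source is labelled uterus, while the protocol speaks of snap frozen pieces of endometrium, from which 20000 nuclei were taken per assay. Each library is a mixture of all cell types in its piece, so fewer cells of a type and less signal per cell cannot be told apart. Nothing in the labels states the oestrous stage or parity of an animal. Groups of 28 to 36 weeks (aged group 1, n = 4) and 54 to 65 weeks (aged group 3, n = 10) are given beside the main values where they help to place them.

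H3K27ac is acetylation of lysine 27 on histone H3, laid down by the acetyltransferases p300 and CBP and removed by histone deacetylases. It marks promoters in use and active enhancers, and it is read by bromodomain proteins. In the uterus, where oestrogen and progesterone receptors recruit these enzymes to enhancers in epithelium, stroma and muscle, the mark follows both hormonal state and cell composition.

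Levels are log2 RPKM, the log2 of reads scaled to peak length and library size, after quantile normalization over the 27 libraries. Library totals were 8701248 to 13336263 reads in the young group and 8098804 to 16944920 reads at 42 to 48 weeks, with 32.3 to 48.7% and 35.4 to 43.7% of reads in peaks. Of 32 defining markers of uterine and other cell types, 15 had a promoter peak to measure, each with at least 28 reads in every library of these groups, and the other 17 were not analysed here. Epithelial Krt8 (2.08 ± 0.36, SD, n = 7) and stromal Vim (2.61 ± 0.30) were above the lower quartile of peak means (0.93) in the young group. So were Esr1 (3.30 ± 0.14) and Pgr (2.24 ± 0.23). Epithelial Ltf (-0.21 ± 0.70) and leukocyte Ptprc (0.81 ± 0.62) were below it. Epithelial Cdh1 and the collagen gene Col1a1 are among the markers without a promoter peak. Library names also hold a mouse number. It has 2 digits in 6 of 7 young animals, and 3 digits in young replicate 2 and in all 6 animals of 42 to 48 weeks, so this series of numbers, whose meaning is not stated, can hardly be told apart from age.

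H3K27ac rose at 6 peaks and fell at none between 9 to 11 and 42 to 48 weeks. The 6 are 0.011% of the peaks tested by limma at a Benjamini-Hochberg adjusted p of 0.05, and they lay at Foxc1, Sult1e1, Ceacam12, Gm2619, Gm5155 and 9530026P05Rik. The first 3 follow from the naming rule. The last 3 carry predicted or Riken names and were added after their values were seen, to complete the 6. At an unadjusted p of 0.05, 2699 peaks (4.97%) were higher and 2150 (3.96%) lower at 42 to 48 weeks, 8.92% together, and the smallest adjusted p of a decrease was 0.153. Every older library was above every young library at 112 peaks (0.206%) and below every young library at 81 (0.149%). The median standard error of a log2 difference was 0.25. Without aged group 2 replicate 5, which stands apart below, 0 peaks passed, with adjusted p of 0.0501 to 0.139 at the 6. Once the series of mouse numbers entered the fit 0 passed as well, at differences of 1.97 (Foxc1), 1.07 (Sult1e1), 3.5 (Ceacam12), 2.49 (Gm2619), 3.35 (Gm5155) and 1.40 (9530026P05Rik). On reads recovered from the values with voom weights 0 passed, at 1.80, 0.85, 2.97, 2.85, 3.24 and 1.65 in that order. On log2(RPKM + 1), which understates differences between low values, 0 passed, at 1.09, 0.71, 1.16, 0.86, 1.13 and 1.03.

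**Figure D1:**
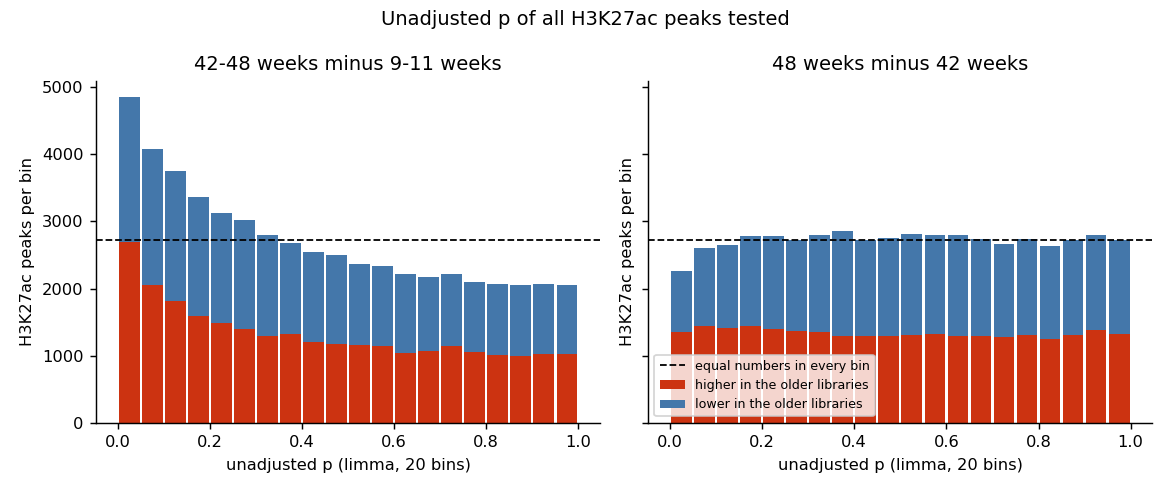
Number of H3K27ac peaks in each of 20 bins of unadjusted p, split by the sign of the difference, for 42 to 48 against 9 to 11 weeks (left) and for 48 against 42 weeks (right). The lowest bin holds 2699 higher and 2150 lower peaks on the left, and 1354 higher and 907 lower peaks on the right, where the dashed line marks equal numbers in every bin.

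Foxc1 encodes a forkhead transcription factor that acts in mesenchyme, vessels and the eye during development. Its peak (GRCm38, chr13:31805367-31812683) holds the whole RefSeq gene (gene ID 17300, chr13:31806646-31810635), its start and its end included. Young libraries had a lowest level of -1.08, a median of -0.28 and a highest of 0.11 log2 RPKM, from 40 to 97 reads. Libraries of 42 to 48 weeks ran from 0.20 through a median of 1.61 to 2.45, from 136 to 428 reads. The lowest older library was thus just above the highest young library, and the groups did not overlap. The difference was 1.82 ± 0.28 log2 units (SE; 95% interval 1.24 to 2.40; limma adjusted p 0.0109; 6 of 6 libraries above every young library). The level was 1.17 ± 0.62 (SD, n = 4) at 28 to 36 weeks and 2.26 ± 0.44 (n = 10) at 54 to 65 weeks, comparisons that use the same young libraries. A second, smaller peak named for Foxc1 (chr13:31814416-31816149), 1733 bases beyond the end of the first, had means of -1.68 and 0.28, a difference of 1.96 ± 0.38 that did not pass (limma adjusted p 0.0912). The other 4 peaks within 100 kb, named for Gmds and Gm11379, differed by -0.14 to 1.06, and none of them passed.

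The RefSeq promoter of Foxc1 (GRCm38.p6, chr13:31806396-31806695, plus strand, 250 bases before the start and 50 after) is the only RefSeq promoter used here that lies in a peak that rose. No start of Gm2619 was among these promoters, so whether its peak holds one was not determined. The Foxc1 promoter is set beside that of Bahcc1 (chr11:120232697-120232996, plus strand). Bahcc1 encodes a chromatin protein with a bromo-adjacent homology domain. It was picked after its values were seen, with a lower mean at 42 to 48 weeks that did not pass (below). It is among the named decreases of smallest adjusted p at 54 to 65 weeks (-1.27 ± 0.17, limma adjusted p 8.67e-05). Capitals mark the letters GGGCGG (GC box) and CCAAT on either strand.
Foxc1: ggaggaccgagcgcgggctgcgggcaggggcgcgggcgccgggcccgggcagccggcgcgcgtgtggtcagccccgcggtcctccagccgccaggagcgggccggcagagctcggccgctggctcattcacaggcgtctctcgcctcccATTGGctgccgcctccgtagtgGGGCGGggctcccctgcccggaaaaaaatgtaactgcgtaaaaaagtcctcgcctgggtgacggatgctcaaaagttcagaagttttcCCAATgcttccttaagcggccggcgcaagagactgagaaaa
Bahcc1: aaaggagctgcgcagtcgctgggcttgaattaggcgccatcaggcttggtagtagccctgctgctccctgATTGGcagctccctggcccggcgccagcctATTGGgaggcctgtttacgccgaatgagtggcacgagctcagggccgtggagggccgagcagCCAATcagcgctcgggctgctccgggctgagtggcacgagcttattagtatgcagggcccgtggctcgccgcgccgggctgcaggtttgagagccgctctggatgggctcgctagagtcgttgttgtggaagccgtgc
Both are rich in G and C, at 67.3% and 64.7%, against a median of 53% over 32585 RefSeq promoters of the same length. The Foxc1 promoter holds 32 CpG dinucleotides, more than 90.4% of those promoters. It has 1 GC box at position 172, counted from 1 at the 5′ end, and CCAAT at positions 150 (on the minus strand) and 260. The Bahcc1 promoter has 23 CpG dinucleotides, CCAAT at positions 71, 101 and 163, and no GC box. Of all promoters, 35.9% hold a GC box and 37.6% a CCAAT box, so both matches are common. Neither promoter held TATAAA (13.7% of promoters), the AP-1 letters TGANTCA (7.9%) or the palindromic oestrogen response element (0.1%), and the forkhead letters TGTTTAC (3.7%) were in Bahcc1 only, at position 112.

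Sult1e1 encodes oestrogen sulfotransferase, which inactivates oestrogens by adding a sulfate group, and which progesterone induces in the uterus. Its peak (chr5:87572469-87574753) lies outside the RefSeq gene (gene ID 20860, chr5:87575968-87591611, minus strand), 1214 bases past its 3′ end. The young libraries ran from 1.19 through a median of 1.40 to 1.83 log2 RPKM (46 to 93 reads). The libraries of 42 to 48 weeks ran from 2.12 through 2.37 to 2.70 (81 to 232 reads). All 6 were above every young library, and of the 6 peaks this one had the smallest spread at 42 to 48 weeks (SD 0.21). The difference was 0.91 ± 0.15 log2 units (95% interval 0.61 to 1.21; limma adjusted p 0.0109). The level was 2.14 ± 0.38 (n = 4) at 28 to 36 weeks and 2.46 ± 0.27 (n = 10) at 54 to 65 weeks. The peaks around it did not pass. Of 5 peaks within 100 kb, at Sult1b1 and Sult1d1, which encode other cytosolic sulfotransferases, 4 had lower means at 42 to 48 weeks. The farthest from 0 was a Sult1d1 peak (chr5:87549143-87550448) with means of 1.26 and 0.34, a difference of -0.93 ± 0.34 (limma adjusted p 0.463).

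Ceacam12, a member of the carcinoembryonic antigen family of cell surface glycoproteins, had a peak inside the gene (chr7:18073825-18074766, gene chr7:18065929-18077986, exon or intron not analysed here). Young libraries split into a low and a high set. Replicates 1, 2, 3 and 7 had 0 or 1 read each and levels of -3.49 to -3.42, while replicates 4, 5 and 6 had 15, 5 and 14 reads and levels of 0.30, -1.14 and 0.76. Libraries of 42 to 48 weeks had 15 to 33 reads and levels of 0.36 to 1.73, with a median of 1.20. The groups overlapped, with 4 of 6 older libraries above every young library. The difference was 3.10 ± 0.57 log2 units (95% interval 1.95 to 4.26; limma adjusted p 0.0493), and its size rests on values near the level of 1 read. Gm5155, a protein-coding gene of the same chromosome, had a peak inside the gene (chr7:17902149-17904520) with 1 to 11 reads in young and 11 to 148 reads in older libraries. Its levels were -4.64 to -1.55 (median -3.18) in young and -1.05 to 2.55 (median 0.12) in older libraries, a difference of 3.42 ± 0.59 (limma adjusted p 0.0292), without overlap, and its size too rests on values of a few reads. Neither peak had another within 100 kb. The part of reads shared between copies of such gene families was not tested.

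Gm2619 is annotated as a transcribed pseudogene. Its peak (chr1:85324198-85328212) runs over an end of the gene (chr1:85313407-85327379). Young levels were -3.76 to -1.21 with a median of -2.32 (3 to 17 reads), and levels at 42 to 48 weeks were -0.70 to 0.90 with a median of 0.45 (23 to 103 reads), so the young values again come from few reads. No older library reached the young range. The difference was 2.61 ± 0.41 (95% interval 1.77 to 3.44; limma adjusted p 0.0109). A peak 697 bases away, named for Gm16025, had means of -1.41 and 0.10, a difference of 1.51 ± 0.40 that did not pass (limma adjusted p 0.31). 9530026P05Rik is a long non-coding RNA gene, and its peak (chr6:92987166-92988847) lies inside it. Young levels were -1.43 to 0.56 (median 0.07, 7 to 30 reads) and older levels 0.98 to 2.42 (median 1.77, 39 to 95 reads), also without overlap. The difference was 1.68 ± 0.30 (95% interval 1.06 to 2.30; limma adjusted p 0.0493). Of 8 peaks within 100 kb, including 4 named for the matrix protease gene Adamts9, none passed.

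**Figure D2:**
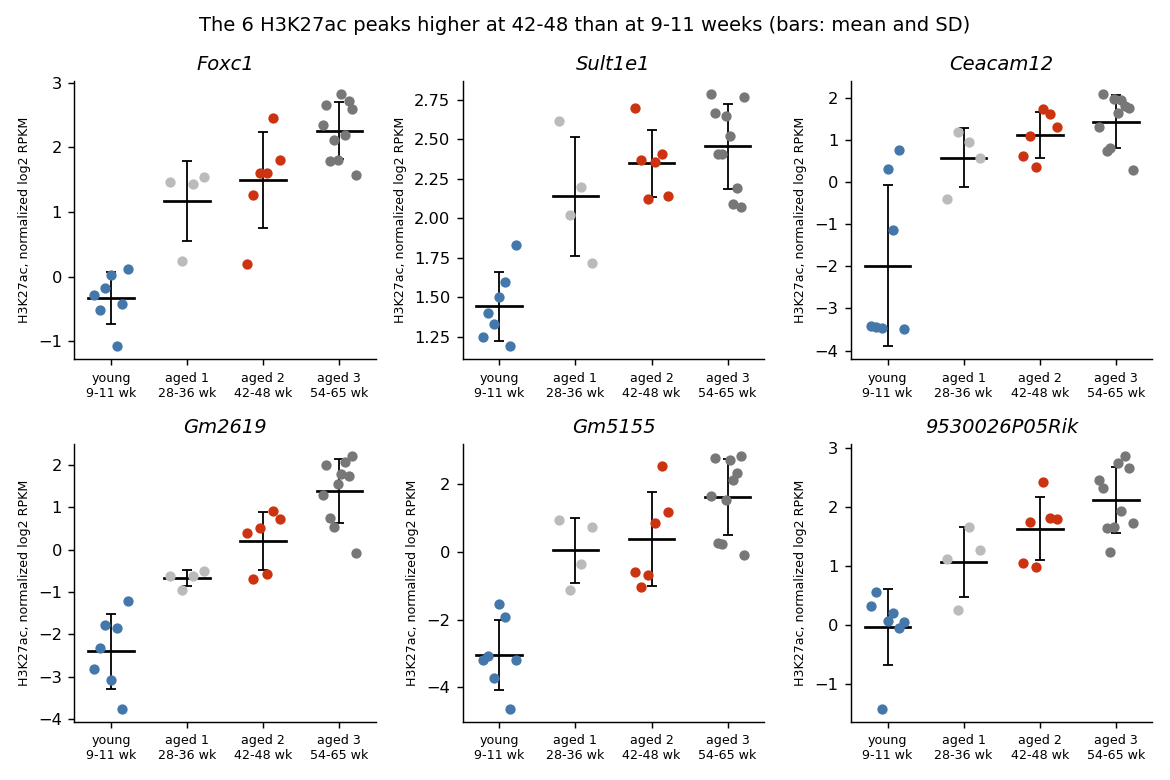
H3K27ac level (normalized log2 RPKM) of each library at the 6 peaks that rose, for the 4 age groups, with the mean and SD of each group as bars. In 5 panels every library of 42 to 48 weeks lies above every young library, and at Ceacam12 young replicate 6, at 0.76, lies among the older libraries.

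All 6 peaks had means at 28 to 36 weeks between those at 9 to 11 and at 42 to 48 weeks, and the highest mean at 54 to 65 weeks. These means were 0.58 and 1.44 at Ceacam12, -0.67 and 1.38 at Gm2619, 0.05 and 1.63 at Gm5155, and 1.07 and 2.13 at 9530026P05Rik. No peak passed at 28 to 36 weeks against young (0 of 54354) and 29.3% passed at 54 to 65 weeks, and both comparisons use the same 7 young libraries. Between 42 to 48 and 54 to 65 weeks the 6 differed by 0.11 to 1.26 log2 units, and no peak of the table passed. The library code holds a digit that takes the values 2, 3, 4, 5 and 7 in young and 1 to 6 at 42 to 48 weeks. Among digits with both groups, the differences at the 6 were 1.97 at Foxc1, 0.95 at Sult1e1, 3.70 at Ceacam12, 2.53 at Gm2619, 3.30 at Gm5155 and 1.86 at 9530026P05Rik. None of the 6 passed (limma adjusted p 0.535). The libraries with such digits are part of those in which the 6 were found, so the sizes are not independent of the main values. With the digit as a term only Sult1e1 passed (0.99, limma adjusted p 0.00124). Young replicate 2, the young animal with a number of 3 digits, had -0.51 at Foxc1 and 1.40 at Sult1e1, below all 6 older libraries at both. Both peaks were picked for their difference from the young libraries, this one included. These values of 1 animal therefore cannot separate the series of numbers from age.

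H3K4me3, trimethylation of lysine 4 on the same histone and a mark of promoters, was profiled in the same animals. It overlapped 4 of the 6 peaks, against 38.4% of all H3K27ac peaks. At these 4 it was higher at 42 to 48 weeks, by 1.03 ± 0.23 at Foxc1 (limma adjusted p 0.0473), 0.92 ± 0.20 at Sult1e1 (limma adjusted p 0.0486), 2.33 ± 0.45 at Gm2619 (limma adjusted p 0.0166) and 1.68 ± 0.30 at 9530026P05Rik (limma adjusted p 0.00965). Over all of H3K4me3, 53 of 25827 peaks (0.205%) rose and 3 (0.0116%) fell, 0.217% together. That count was 4 without aged group 2 replicates 5 and 6, a setting chosen after seeing the data, and 4 once the series of mouse numbers entered the fit. The peaks at Ceacam12 and Gm5155 overlapped no H3K4me3 peak of the table.

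Further increases did not pass the threshold. Adck1, Ptger4, Ryr3, Mid1, Met and Igsf23 are described after their values were seen. They have the smallest p among such peaks whose symbol is not predicted and whose higher group mean reached 0.93, the lower quartile. The second Foxc1 peak (above), with a mean of 0.28 at 42 to 48 weeks, did not reach it, and peaks without a symbol were left out. Adck1, a mitochondrial kinase-like gene, had a peak inside the gene (chr12:88407576-88409171) of 0.34 to 0.96 (median 0.77) in young and 1.15 to 1.87 (median 1.68) in older libraries. It did not overlap between groups, with a difference of 0.90 ± 0.18 (limma adjusted p 0.0912). Mid1, which encodes a microtubule-associated ubiquitin ligase, had a peak (chrX:169936216-169937879) of 0.38 to 1.13 in young and 1.14 to 2.38 in older libraries (1.00 ± 0.20, limma adjusted p 0.110). Met encodes the receptor of hepatocyte growth factor, and its peak inside the gene (chr6:17480511-17482247) ran from 0.41 to 1.36 in young and from 1.09 to 2.42 in older libraries, which overlapped (1.18 ± 0.24, limma adjusted p 0.110). Ptger4, the prostaglandin E2 receptor EP4, had 520 bases of peak inside the gene with levels of -0.99 to 1.87 in young and 1.41 to 1.97 in older libraries. Its difference was 1.55 ± 0.31 (limma adjusted p 0.0989), and without young replicate 2, the library at 1.87, it was 1.83 with an adjusted p of 0.00601. Ryr3, a calcium release channel, differed by 1.77 ± 0.35 (limma adjusted p 0.0989) and Igsf23 by 0.72 ± 0.15 (limma adjusted p 0.114).

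No decrease passed. With the same filters on symbol and level, the 6 of smallest p lay at Dnmt3a, Ptgdr2, Mos, Hecw2, Kdm2a and Dennd1a, none within 1 kb of a RefSeq start. Dnmt3a encodes a de novo DNA methyltransferase. Its peak of 618 bases inside the gene (chr12:3849856-3850473) ran from 0.92 to 1.82 (median 1.51) in young and from 0.11 to 0.94 (median 0.46) in older libraries, with 5 of 6 below every young library. The difference was -0.97 ± 0.22 (95% interval -1.41 to -0.53, limma adjusted p 0.153) from 7 to 25 reads per library. Ptgdr2, a prostaglandin D2 receptor, had levels of 1.47 to 2.16 in young and -0.68 to 1.24 in older libraries, without overlap (chr19:10940624-10941311, -1.39 ± 0.32, limma adjusted p 0.166). Its 42-week libraries had a mean of -0.30 and its 48-week libraries a mean of 0.96, so the older libraries differed among themselves. Kdm2a, which encodes a histone H3 lysine 36 demethylase, had levels of 1.41 to 1.93 in young and 0.52 to 1.09 in older libraries (chr19:4314609-4316076, -0.77 ± 0.18, limma adjusted p 0.201). Hecw2, a ubiquitin ligase, had levels of 1.32 to 2.22 and 0.28 to 1.28 (chr1:54126022-54127320, -1.09 ± 0.26, limma adjusted p 0.201). Neither of these overlapped between groups. The peak beside Mos, a kinase of oocyte meiosis, differed by -0.72 ± 0.16 (limma adjusted p 0.166) and Dennd1a, a regulator of membrane traffic, by -0.97 ± 0.23 (limma adjusted p 0.201). Without aged group 2 replicate 3, Mos passed (-0.86, adjusted p 0.0422), while it was at -0.61 without replicate 5, -0.59 without replicate 6 and -0.42 without both (adjusted p 0.913). Bahcc1 had levels of 1.78 to 2.38 (median 2.09) in young and 1.00 to 1.83 (median 1.23) in older libraries at its promoter peak, a difference of -0.78 ± 0.20 (limma adjusted p 0.274).

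**Figure D3:**
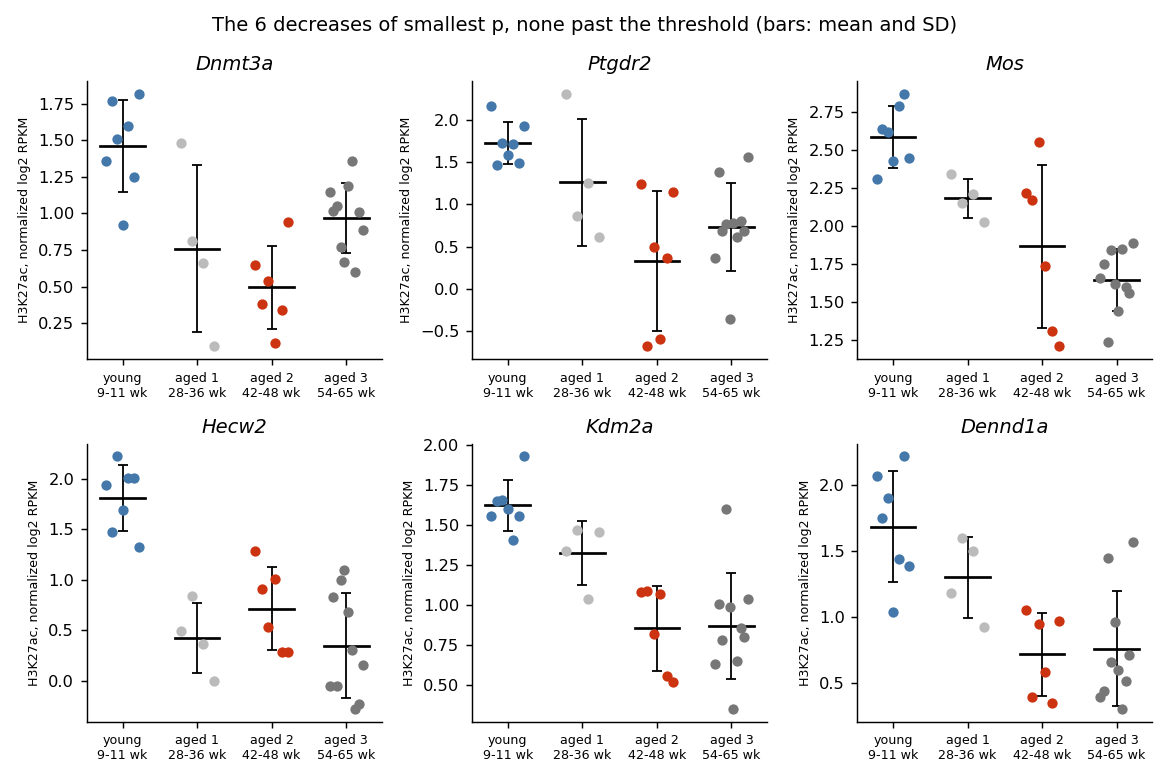
H3K27ac level (normalized log2 RPKM) of each library at the 6 named decreases of smallest p, none past the threshold, for the 4 age groups, with the mean and SD of each group as bars. At Ptgdr2, Hecw2 and Kdm2a every library of 42 to 48 weeks lies below every young library, and at Dnmt3a, Mos and Dennd1a 5 of 6 do.

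Counts were also taken by where a peak lay. Of 12162 peaks within 1 kb of a RefSeq start, 3.37% were higher and 3.31% lower at an unadjusted p of 0.05, with 1 that passed, at Foxc1. Of 28901 peaks inside genes over 1 kb from any start, 5.65% were higher and 3.90% lower, and 4 passed. Of 3945 peaks outside genes but within 5 kb of one, 5.48% were higher and 4.16% lower, and 1 passed, at Sult1e1. Of 9346 peaks over 5 kb from any gene, 4.71% were higher and 4.87% lower, and none passed. The median difference was -0.032 log2 units at starts and 0.011 inside genes, with median standard errors of 0.17 and 0.26.

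Libraries of 42 to 48 weeks did not form a uniform group. In aged group 2 replicate 5, of 42 weeks, 23.3% of peaks lay over 1 log2 unit from the young mean, 12.1% above and 11.2% below. Replicate 6, of 48 weeks, had 13.2%, and the other 4 had 2.4 to 7.1%. Young libraries, each set against the mean of the other young libraries, had 1.5 to 10.4%, the highest in replicate 5, so 4 of 6 older libraries lay within the young range. On the first principal component of the 27 libraries, which holds 42.4% of the variance, replicate 5 scored 115.3 and replicate 6 scored 32.6. The other 4 older libraries scored -72.7 to -12.1 and the young libraries -92.9 to -2.0. The libraries of 54 to 65 weeks are set beside these. Aged group 3 replicates 2, 6, 7, 8 and 9 had 24.8 to 27.5% of peaks over 1 log2 unit from the young mean. Replicates 1 and 5 of that group had 19.3 and 17.3%, and its replicates 3, 4 and 10 had 3.8 to 6.0%. In the same order these libraries scored 125.3 to 148.0, 83.6 and 43.6, and -79.1 to -42.9 on the component. Over all peaks the median SD among libraries was 0.43 at 42 to 48 weeks and 0.37 in young, with the higher SD at 42 to 48 weeks at 62.5% of peaks.

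**Figure D4:**
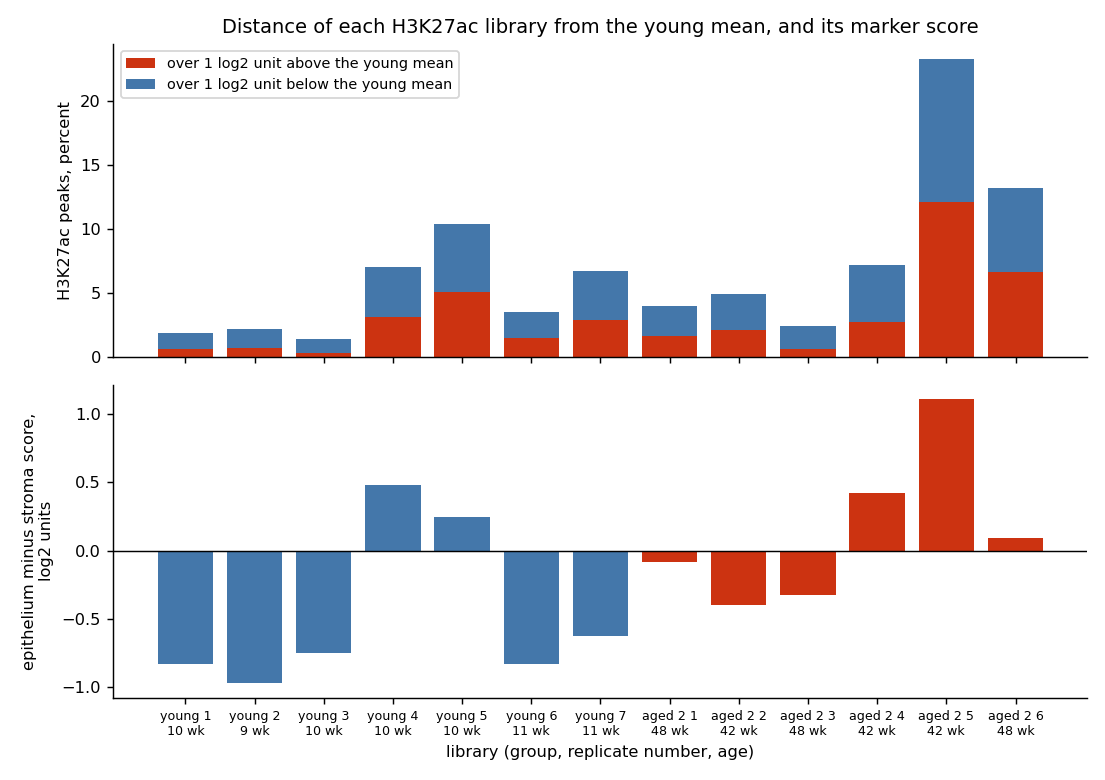
Percent of H3K27ac peaks over 1 log2 unit above or below the young mean (top), and mean level of epithelial marker promoters minus that of stromal marker promoters in log2 units (bottom), for each of 7 young and 6 aged group 2 libraries. Aged group 2 replicate 5 is the highest in both panels, at 23.3% and 1.11.

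Among the young libraries and those of 42 to 48 weeks, a score of cell type markers was highest in aged group 2 replicate 5 as well. It is the mean level at 15 promoter peaks of luminal and glandular epithelium minus that at 17 promoter peaks of endometrial stroma. It was -0.97 to -0.62 in 5 young libraries and 0.25 and 0.48 in young replicates 5 and 4. At 42 to 48 weeks it was -0.40 to -0.08 in replicates 1, 2 and 3, 0.09 in replicate 6, 0.42 in replicate 4 and 1.11 in replicate 5. Only replicate 5 was above every young library. With this score as a covariate 9 peaks passed, among them Foxc1 (1.60), Sult1e1 (0.91), Gm2619 (2.25) and Gm5155 (2.58). Ceacam12 (2.58) and 9530026P05Rik (1.45) did not, each at a limma adjusted p of 0.0836.

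Epithelial and stromal marker promoters leaned in opposite directions, and none passed. All 15 epithelial promoter peaks had a higher mean at 42 to 48 weeks, with a median difference of 0.22, and 3 had an unadjusted p under 0.05. All 17 stromal promoter peaks had a lower mean, with a median of -0.31, and 1 had an unadjusted p under 0.05. Of all H3K27ac peaks 49.1% had a higher mean at 42 to 48 weeks. Over all 11348 promoter peaks (the highest peak of each gene) 4895 were higher, the median was -0.03, and 3.30% were higher and 3.22% lower at that unadjusted p. Without aged group 2 replicate 5 the medians were 0.18 and -0.17, with 13 of 15 higher and 16 of 17 lower. Among epithelial genes, the tight junction gene Cldn4 ran from 1.41 to 2.18 in young and from 1.94 to 2.72 in older libraries (0.47 ± 0.14, limma adjusted p 0.402). The epithelial transcription factor gene Pax8 had means of 2.38 and 2.60 (0.22 ± 0.12) and the keratin gene Krt18 had means of 2.31 and 2.61 (0.30 ± 0.15). Among stromal genes, Nr2f2, which encodes the orphan receptor COUP-TFII, had means of 3.13 and 3.00 (-0.13 ± 0.11) and Vim had means of 2.61 and 2.34 (-0.27 ± 0.24). Hoxd11 had the largest stromal difference, from 1.37 to 2.30 in young and 0.69 to 1.73 in older libraries (-0.69 ± 0.30, limma adjusted p 0.520). The promoters of Hoxa10 and Hoxa11 share 1 peak, which had 1.64 to 2.99 in young and 1.28 to 2.56 in older libraries, and was lowest in replicate 5. What part cell composition has in these values was not tested.

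In the 35 gene lists used, 443 genes had a promoter peak, at 434 distinct peaks, and none passed, where 0.011% of all peaks and 1 of 11348 promoter peaks did. At an unadjusted p of 0.05, 13 of the 434 were higher and 17 lower, 6.91% in all. Genes cited below for such a p were chosen after their values were seen. The next paragraphs give the lists by role.

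Steroid hormone genes come first. Esr1, the oestrogen receptor, had 3.04 to 3.44 log2 RPKM (median 3.35) at its promoter in young and 3.09 to 3.53 (median 3.29) in older libraries, ranges that overlap almost whole (-0.02 ± 0.09, 95% interval -0.19 to 0.16). Pgr, the progesterone receptor, had 1.91 to 2.44 and 2.07 to 2.79 (0.04 ± 0.14). Of 18 promoter peaks of steroid receptor and coregulator genes 9 were higher, with a median of 0.00, the corepressor gene Nrip1 among them at 0.04 ± 0.08. Of 18 oestrogen response promoters 12 were higher, with a median of 0.18. The oestrogen-induced lactoferrin gene Ltf ran from -0.70 to 1.31 (median -0.43) in young and from 0.02 to 2.21 (median 0.59) in older libraries (0.99 ± 0.44, limma adjusted p 0.531), highest in replicate 5. Fos, an early oestrogen target, differed by 0.06 ± 0.12. Of 14 progesterone response promoters 10 were lower, with a median of -0.16, and Per1 differed by 0.06 ± 0.14. Of 61 further peaks named for genes of that list 1 rose, the Sult1e1 peak above, which is also the 1 that rose of 125 further peaks of the steroid receptor list. Decidualisation and implantation promoters were split, 8 higher and 6 lower (median 0.00), with the BMP receptor gene Bmpr2 at 0.03 ± 0.10 and Dedd at 0.13 ± 0.11. Retinoid and prostaglandin promoters were lower at 14 of 22 (median -0.08). The retinol carrier gene Rbp4 was at 1.55 to 2.36 in young and 0.03 to 1.77 in older libraries (-0.73 ± 0.28, limma adjusted p 0.478), while Dhrs3 had -0.06 ± 0.16 and the phospholipase gene Pla2g4a 0.04 ± 0.09.

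Secretory genes had the highest median of all lists with over 1 peak. Of 13 promoters of mucins and epithelial secretion 10 were higher, with a median of 0.40, and it was 0.20 without aged group 2 replicate 5 and 0.05 without replicates 5 and 6. The mucin gene Muc1 ran from 0.97 to 1.88 in young and from 1.20 to 2.30 in older libraries (0.50 ± 0.21, limma adjusted p 0.507). Muc4 ran from -0.32 to 1.90 and from 0.32 to 2.34 (0.94 ± 0.41, limma adjusted p 0.523). Anxa1 was narrower and lower, at 2.87 to 3.15 and 2.74 to 2.98 (-0.20 ± 0.08, limma adjusted p 0.504), and Wfdc2 differed by 0.21 ± 0.15.

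Matrix genes leaned lower. Of 19 promoters of collagens and matrix 17 were lower, with a median of -0.26, and -0.09 without aged group 2 replicate 5. Col15a1, a basement membrane collagen gene, ran from 0.95 to 2.04 in young and from -0.46 to 1.96 in older libraries (-0.79 ± 0.38, limma adjusted p 0.554). Fbln1 (-0.23 ± 0.13) and Sparc (-0.24 ± 0.23) had smaller differences. Of 14 promoters of matrix proteases and inhibitors 10 were lower (median -0.11). Adamts2, which trims procollagen, ran from -0.09 to 1.31 and from -0.45 to 1.06 (-0.76 ± 0.29, limma adjusted p 0.478), while Mmp14 was at 0.16 ± 0.10 and Ctsl at -0.11 ± 0.11.

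Signalling and patterning lists had medians of -0.15 to 0.01, against -0.03 for all promoters. TGF-beta and BMP promoters were higher at 10 of 19 (median 0.01), with Id2 at 0.06 ± 0.16. Wnt promoters were lower at 12 of 22 (median 0.00), with Rnf43 at 0.05 ± 0.16, Tcf7l2 at 0.06 ± 0.13 and the ligand gene Wnt16 at -0.81 ± 0.36 (limma adjusted p 0.536). Notch and hedgehog promoters were lower at 11 of 16 (median -0.09), with Jag1 at -0.02 ± 0.11 and Smo at -0.09 ± 0.13. FGF, EGF and IGF promoters were lower at 15 of 23 (median -0.15), with Egf at 0.02 ± 0.16 and Spry2 at -0.04 ± 0.09. The mean over these 23 peaks was 1.77 to 1.93 in young and 1.54 to 1.86 in older libraries. It was below every young library in 5 of 6, but only just so in replicates 1 (1.76) and 6 (1.75). The mean of the interferon response list had the same count, 5 of 6. Igfbp5, a gene of the FGF, EGF and IGF list that binds insulin-like growth factors, ran from 1.23 to 1.83 in young libraries. It ran from 0.54 to 1.53 in older libraries, 5 of 6 below every young library (-0.67 ± 0.20, limma adjusted p 0.389). The 17 HOX and patterning genes share 12 peaks, 8 of them lower (median -0.08), with Emx2 at -0.04 ± 0.08 and Meis1 at -0.03 ± 0.12. Pax2, a factor of the reproductive tract epithelium, was at 1.95 to 2.77 and 2.42 to 3.01 (0.36 ± 0.15, limma adjusted p 0.498).

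Immune lists gave no call either. Interferon response promoters were lower at 17 of 25 (median -0.12), and 4 had an unadjusted p under 0.05, all lower. Gbp3, an interferon-induced GTPase gene, ran from 2.35 to 3.00 in young and from 2.06 to 2.36 in older libraries (-0.40 ± 0.13, limma adjusted p 0.418). The other 3 were Xaf1 (-0.53 ± 0.22), Ddx58 (-0.40 ± 0.18) and Ifit1 (-0.30 ± 0.14), with Oasl2 at -0.17 ± 0.12 and Gbp2 at -0.10 ± 0.13. Antigen presentation promoters were split 5 to 5 (median -0.04), with H2-DMa at -0.09 ± 0.08 and Tap1 at -0.11 ± 0.12. The deposited names of these peaks are neighbours, Brd2 for H2-DMa and Psmb9 for Tap1, so the values are not of these genes alone. Psmb8, an immunoproteasome subunit gene of that list, did not overlap, at 2.00 to 2.37 in young and 1.43 to 1.98 in older libraries (-0.43 ± 0.15, limma adjusted p 0.447). Complement promoters were lower at 5 of 6 (median -0.09), with Cd55 at -0.09 ± 0.11 and Cd59a at -0.02 ± 0.16. Inflammatory secretion was lower at 8 of 15 (median 0.00). Its chemokine genes differed in direction, Cxcl14 at 0.55 ± 0.25 (limma adjusted p 0.542) and Cxcl12 at -0.65 ± 0.32 (limma adjusted p 0.556), while Nfkb2 and Nfkbia were at -0.01 ± 0.13 and 0.00 ± 0.11. Immediate early and AP-1 promoters were higher at 15 of 20 (median 0.07), with Klf6 at 0.04 ± 0.08, Jun at 0.04 ± 0.09 and Maff at 0.56 ± 0.21 (limma adjusted p 0.481).

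Markers of leukocytes and vessels were mostly few. Leukocyte promoters were higher at 6 of 13 (median -0.05), with Lcp1 at 0.55 ± 0.29 and Hcls1 at -0.22 ± 0.18. Laptm5, a lysosomal gene of blood cells, was the list gene with the smallest p, at 0.16 to 0.84 (median 0.51) in young and 0.93 to 2.05 (median 1.44) in older libraries, without overlap (0.93 ± 0.22, limma adjusted p 0.201). The mean over the leukocyte list was 0.60 to 1.17 in young, 0.55 to 0.86 in 5 older libraries and 1.76 in replicate 5. Macrophage promoters were higher at 3 of 5 (median 0.14, Cebpa -0.31 ± 0.20, Cd68 0.14 ± 0.13 at a peak named for Mpdu1). T and NK cell promoters were higher at 2 of 3 (median 0.12, Lck 0.12 ± 0.12, Tcf7 0.34 ± 0.29 at a peak named for A630014C17Rik). B and plasma cell promoters were lower at 2 of 3 (median -0.24, Xbp1 0.01 ± 0.13, Prdm1 -0.24 ± 0.22). Granulocytes and mast cells rested on Hdc alone (-0.47 ± 0.32), and adipocytes and mesothelium on Pparg alone (0.30 ± 0.25). Blood endothelial promoters were higher at 5 of 8 (median 0.04), with Tek at 0.04 ± 0.27, Eng at -0.03 ± 0.25 and the endothelial claudin gene Cldn5 at 1.11 ± 0.36 (limma adjusted p 0.426). Lymphatic endothelium had 2 promoters (median 0.03, Pdpn 0.19 ± 0.21). Pericyte promoters were lower at 5 of 5 (median -0.21, Kcnj8 -0.16 ± 0.21, Notch3 -0.24 ± 0.23) and smooth muscle promoters at 7 of 9 (median -0.11, Cald1 -0.11 ± 0.21, Smtn -0.03 ± 0.12).

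Genes of the cell cycle, clock and chromatin had medians of -0.10 to -0.05. Cell-cycle arrest and senescence promoters were lower at 11 of 16 (median -0.05), with the inhibitor gene Cdkn1b at -0.10 ± 0.11 and Glb1, which encodes lysosomal beta-galactosidase, at -0.05 ± 0.10. Proliferation promoters were lower at 16 of 26 (median -0.10). The mitotic kinesin gene Kif11 was at 1.95 to 2.71 and 2.13 to 3.42 (0.41 ± 0.19, limma adjusted p 0.541), and Aurka was at -0.05 ± 0.10. Circadian promoters were lower at 8 of 15 (median -0.05), with Nr1d1 at -0.05 ± 0.11, Per3 at 0.27 ± 0.13 (limma adjusted p 0.559) and Rora at -0.42 ± 0.20 (limma adjusted p 0.557). Acetylation and methylation enzymes were lower at 22 of 29 (median -0.09), with Kdm6a at -0.10 ± 0.08, Sirt6 at 0.08 ± 0.08 and Tet1, which oxidises 5-methylcytosine, at -0.47 ± 0.22 (limma adjusted p 0.542). Control genes used in every cell type were higher at 8 of 12 (median 0.06), with Polr2a at 0.04 ± 0.13 and Gapdh at 0.14 ± 0.13. Without aged group 2 replicate 5 the median changed sign for macrophages (-0.08), TGF-beta and BMP (-0.03), circadian (0.06) and HOX and patterning genes (0.01). It moved away from 0 for leukocytes (-0.23), Wnt (-0.12), cell-cycle arrest (-0.11) and proliferation (-0.20), and toward 0 for FGF, EGF and IGF (-0.05), oestrogen response (0.11), matrix proteases (-0.06), B and plasma cells (-0.11) and smooth muscle (0.00).

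**Figure D5:**
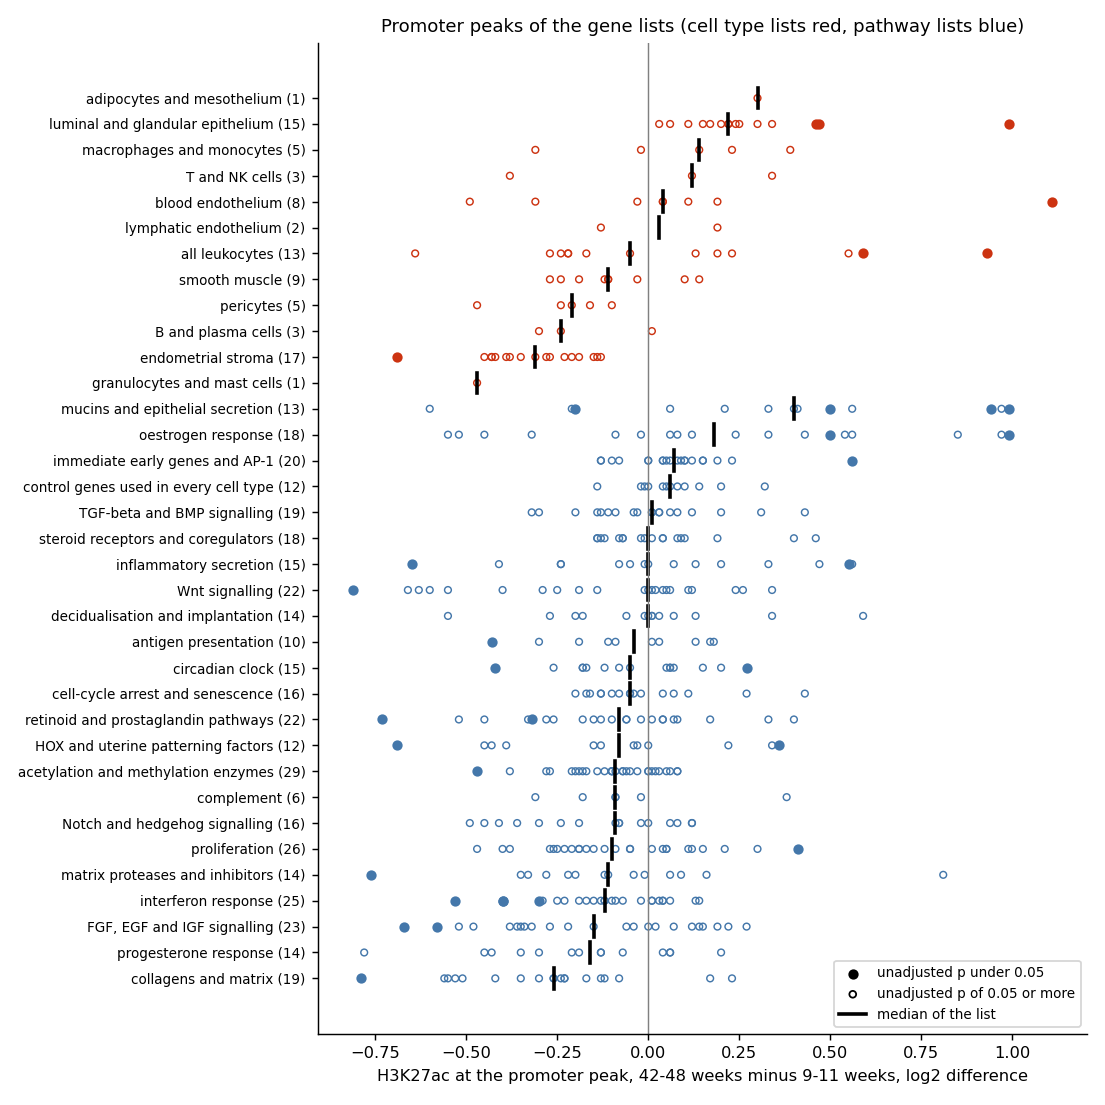
Difference in H3K27ac (42 to 48 minus 9 to 11 weeks, log2 units) at each distinct promoter peak of 35 gene lists, with the number of peaks in brackets, filled where the unadjusted p is under 0.05, and a black bar at the list's median. The 15 epithelial peaks all lie right of 0 and the 17 stromal peaks all lie left of it.

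Within the older group, no peak passed between 48 and 42 weeks. Of 54354 peaks 0 passed, the smallest limma adjusted p was 0.998, and 4.16% had an unadjusted p under 0.05 (2.49% higher and 1.67% lower at 48 weeks). The 42-week libraries are replicates 2, 4 and 5 and the 48-week libraries replicates 1, 3 and 6, so each age holds 1 of the 2 libraries that stand apart. The smallest p of an increase was at Sh3pxd2a, an invadopodia scaffold gene, with means of -0.22 at 42 and 1.54 at 48 weeks (1.76 ± 0.43). Sctr, the secretin receptor gene, had means of 0.47 and 1.98, Wwp2 0.13 and 1.49, and Armc3, at its promoter, 0.91 and 2.25. Dip2c held peaks of both directions, 1 with means of 0.07 and 1.58 (chr13:9368883-9369621) and 1 with means of 1.67 and 0.49 (chr13:9350173-9350763). Among decreases, Cobll1 had means of 1.54 and 0.25, the cohesin subunit gene Rad21 1.30 and -0.41, Otud7b 2.04 and 0.59, and the kinase gene Tec 1.74 and 0.52. None of these 10 passed, each at a limma adjusted p of 0.998. At the 6 peaks higher at 42 to 48 weeks than in young, 48-week libraries differed from 42-week libraries by -0.81 to 0.67 log2 units, with no call.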

How the data were processed

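Native chromatin immunoprecipitation with sequencing was done on mouse uterus, with 250 ng of antibody per assay, per the labels' protocols. The authors deposited a table of log2 RPKM per peak and library for each mark. Reads were aligned to GRCm38 with Bowtie2, and deepTools 3.5.1, ChIPseeker 1.34.1, DESeq2, MACS2 2.2.9.1 and DiffBind 3.8.0 are named, per the submitters' processing notes, without their roles. Whether peaks were called per library or on pooled reads is not given in the sources used here. Peaks were named by the nearest gene within 5 kb in the deposited table.

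From these values, log2 RPKM was quantile normalized and fitted with limma 3.58.1 (R 4.3.3) as 4 group means over 27 libraries per mark, with a trend in the spread and Benjamini-Hochberg adjustment over all peaks, two-sided. The fit was tested on simulated data. Reads were recovered from the values (whole within 0.05 reads, 100.0%). A promoter peak is the peak of highest mean within 1 kb of a RefSeq start. Its deposited name can be that of a neighbouring gene. Such peaks include those used for H2-DMa (Brd2), Tap1 (Psmb9), Mmp14 (Mrpl52), Cd68 (Mpdu1), Per1 (Vamp2) and Gbp2 (Gbp2b). They also include those of Nfkb2 (4833438C02Rik), Tcf7 (A630014C17Rik), Jun (Gm12703), Cebpa (Gm45091), Emx2 (Emx2os) and Anxa1 (1500015L24Rik). Labels number the animals as separate replicates. No pair of the 36 pairs within groups held identical values. Members and gene lists were chosen with earlier results of these data known. Named genes were, among peaks past the threshold whose symbol is not predicted (Gm, Riken, clones) and whose higher group mean was at or above the lower quartile of peak means, up to 15 per direction by p. Where none passed, the 6 of smallest p were named. For lists, up to 6 promoter peaks past the threshold were named or else the 2 of highest mean, and for 48 against 42 weeks 5 per direction. Alternatives changed the normalization, low-value filter, pseudocount of 1, weights, libraries fitted, code digit, mouse number series, replicate block and marker score.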

Additional observations from a re-analysis of the deposited data

Results flagged for a closer look

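For named peaks and list means, the library farthest from its group was compared with the range of that group (Dixon's criterion at 95%). Of 284 groups examined 23 held such a library, and chance gives about 1 in 20. Values are normalized log2 RPKM. Lowest and highest refer to the library within its group. Among the 7 young libraries, replicate 1 stood apart at Emx2 (highest, 3.65, the others 3.23 to 3.40), Tap1 (highest, 2.92, the others 2.47 to 2.63) and Notch3 (lowest, 0.25, the others 0.87 to 1.21). Replicate 2 stood apart at Armc3 (highest, 2.71, the others 1.44 to 1.95). Replicate 3 stood apart at 9530026P05Rik (lowest, -1.43, the others -0.05 to 0.56) and Lcp1 (lowest, 0.16, the others 1.04 to 1.64). Replicate 4 stood apart at Dhrs3 (highest, 3.02, the others 2.40 to 2.66). Replicate 5 stood apart at Fos (lowest, 2.17, the others 2.47 to 2.66) and Meis1 (highest, 3.43, the others 3.03 to 3.18). Replicate 6 stood apart at Dedd (lowest, 1.93, the others 2.33 to 2.61) and Gapdh (lowest, 2.14, the others 2.26 to 2.31). Replicate 7 stood apart at Lck (lowest, 1.80, the others 2.23 to 2.52) and Xbp1 (highest, 2.93, the others 1.98 to 2.34).

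Among the 6 libraries of 42 to 48 weeks, replicate 1 stood apart at Tcf7l2 (lowest, 2.05, the others 2.29 to 2.40). Replicate 2 stood apart at Bmpr2 (lowest, 2.43, the others 2.66 to 2.80). Replicate 3 stood apart at Bahcc1 (highest, 1.83, the others 1.00 to 1.26), Aurka (lowest, 2.46, the others 2.69 to 2.79) and Xbp1 (highest, 2.56, the others 2.21 to 2.32). Replicate 5 stood apart at Gbp2 (lowest, 2.34, the others 2.64 to 2.79), Polr2a (lowest, 2.30, the others 2.59 to 2.73), mean of inflammatory secretion (highest, 1.79, above the other 5) and mean of all leukocytes (highest, 1.76, the others 0.55 to 0.86). Replicate 6 stood apart at Nfkb2 (lowest, 2.00, the others 2.47 to 2.62). No explanation of these values was tested.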

How the results depend on the processing

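Peaks past the threshold numbered 6 for H3K27ac and 56 for H3K4me3. They numbered 2 and 30 without the lower quartile of peaks. Gm2619, Gm5155 and Ceacam12 lay in that quartile and so were not fitted, and 9530026P05Rik did not pass (1.65, limma adjusted p 0.101). Peaks past the threshold numbered 0 and 32 on log2(RPKM + 1), and 0 and 10 with recovered reads and voom. They numbered 1 and 31 with the code digit as a factor, 1 and 5 on digits with both groups, and 0 and 4 with the series of mouse numbers in the fit. Without aged group 2 replicates 5 and 6, chosen after seeing the data, they numbered 1 and 4. On only the groups compared they numbered 4 and 24, and Foxc1 (adjusted p 0.0973), Ceacam12 (0.182), Gm5155 (0.0543) and 9530026P05Rik (0.116) did not pass. Leaving out 1 library at a time gave 0 to 10 for H3K27ac (0 without aged group 2 replicate 5, 10 without replicate 3, and 3 without young replicate 1, 3 or 7 or aged group 2 replicate 4 or 6). It gave 27 to 55 for H3K4me3, and 27 to 34 without young replicate 1, 2 or 3 or aged group 2 replicate 1, 3, 4, 5 or 6. On the values as deposited, without quantile normalization, 8 and 53 passed, but Sult1e1 did not (0.81, limma adjusted p 0.0554). With the marker score 9 and 47 passed. H3K27ac fell at 1 peak on only the groups compared, with the replicate block and without aged group 2 replicate 3. No 48 against 42 weeks setting run gave a call. The cause of these changes was not tested.

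The replicate numbers are shared between groups. Same-numbered libraries correlated at -0.04 to 0.42 in their deviations for H3K27ac, above 0.1 in 4 of 6 pairs. In 3 of 6 the value was above every other-number pair of the same young library. The criterion for pairing, every pair over 0.1, was not met, and the main fit was unpaired. Whether some same-numbered libraries share more than a number was not tested. With the replicate block 9 H3K27ac and 57 H3K4me3 peaks passed, without Ceacam12 (3.01, adjusted p 0.0506) and 9530026P05Rik (1.68, adjusted p 0.0564). Foxc1 was past the threshold in 16 of 24 settings, Sult1e1 in 17 of 24, Gm2619 in 16 of 23, Gm5155 in 8 of 23, 9530026P05Rik in 4 of 24 and Ceacam12 in 4 of 23. Of 2289 alternatives over 102 single results, 2207 left the call at the threshold as it was. A call was lost in 76, all at the 6 peaks that rose, and gained in 6 (over 5 results), and 0 were labelled reversed. A result without a call had none to lose, so the total of 2207 does not show how stable the calls at the 6 peaks were. These labels follow the threshold, so they do not show that differences without a call kept their sign. Depth limits peaks such as Ceacam12 and Gm5155, where a young library holds a few reads.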

Other observations

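Peaks with the largest spread among the libraries of 42 to 48 weeks held hardly any reads in at least 1 library, and they were picked for that spread. Aged group 2 replicate 5 had 1 read at peaks inside Invs (an inversin gene of the cilium), Atp8a1 (a phospholipid flippase), Slc22a22 (a transporter of prostaglandins), Zdhhc14, Pcx (pyruvate carboxylase), Fam135a and Scara5 (a ferritin receptor). At Fam135a replicate 6 had 1 read as well. The other 5 older libraries had 4 to 62 reads at Invs, 12 to 49 at Atp8a1, 18 to 73 at Slc22a22 and 17 to 46 at Zdhhc14. Young libraries had 13 to 39, 13 to 62, 16 to 57 and 20 to 77 reads at these 4. At Prdm9, which directs meiotic recombination, it was replicate 6 that had 1 read, beside 12 in replicate 5 and 14 to 85 in young libraries.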
